A study of Mus musculus with 2 samples.

Results

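The Ly6 genes described here are Ly6a2, Ly6a, Ly6c1, Ly6c2, Ly6d, Ly6e, Ly6g, Ly6i and Ly6k, a list of 9 genes. On the array 22180 genes had a probe set of their own. A gene was read from probe sets that carry exactly its 1 symbol, and where there were several the one with the highest mean stood for it. On these terms 8 of the 9 genes were measured. Ly6a, which encodes the stem cell antigen Sca-1, had no such probe set and is not analysed here. The list was drawn up because Ly6a2 stood out in this same comparison, so its differences below are a description and nothing rests on a test of them.

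Ly6 proteins are small, cysteine-rich surface proteins, most of them held in the outer leaflet of the membrane by a glycosylphosphatidylinositol anchor, and they share the fold of the urokinase receptor. Several are used as antibody markers of blood cells: Ly-6C for monocytes, Ly-6G for neutrophils and Sca-1 for stem cells and activated T cells. Most of their genes lie side by side in a cluster that expanded in rodents, and the copies are close relatives of each other.

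Intensities came from 2 whole-transcript mouse arrays, 1 of Fx-/- mice that were fucose-treated and 1 of Fx-/- mice with no fucose treatment. Fx, now Gfus, is needed to make GDP-fucose from mannose, so Fx-/- cells depend on supplied fucose for fucosylated glycans, and the study asked how expression differs without it. Both arrays held RNA of spleen cells labelled cDC1 (conventional type 1 dendritic cells), taken after depletion with antibodies to B220 and CD11b and positive selection for CD11c. The series title calls them cDC1-enriched. Both groups carry the Fx deletion and there is no wild-type array. The labels used here give no strain, age, sex or number of mice, and how long mice were without fucose is not stated in them.

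With 1 array in each group there is no replicate check, no test and no error across mice, and the number of arrays limits the precision. Every difference is the array with no fucose treatment minus the fucose-treated array, on the log2 scale. The median of all probe sets was 2.81 on the fucose-treated array and 2.82 on the other, and values near it are dim. A difference between dim values may be understated or may be noise, which was not tested. Probe sets respond differently, so levels are compared between the arrays within a gene and not between genes. Marker genes were read on each array to check the labelled cell type. The T cell gene Cd3e had 10.97 and 10.55. The cDC1 receptor gene Xcr1 had 2.90 and 3.43, near the array medians, and the CD11c gene Itgax 3.83 and 3.86. The cDC1 genes Naaa (5.97 and 8.36), Irf8 (4.18 and 6.68), Batf3 (4.58 and 5.49) and Wdfy4 (4.28 and 5.84) lay further above the medians. So did Itgae, which was lower with no fucose treatment (6.02 and 5.64). Zbtb46 (2.84 and 2.98), Cadm1 (3.04 and 3.65), Flt3 (3.19 and 4.13) and Tlr3 (2.95 and 4.96) were dim on at least the fucose-treated array. T cell RNA was thus present on both arrays, and a cell type share cannot be read from these levels. The X-inactivation gene Xist had 8.26 and 2.82 and the Y-linked genes Uty 2.14 and 5.26 and Kdm5d 2.50 and 5.44, so a sex-linked difference between the arrays cannot be told apart from the fucose treatment in any value below.

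Upstream sequences of the cluster are shown first for Ly6a2 and its neighbour Ly6c2, because these genes have nearly the same sequence there and differences of very unequal size in the data, and for Ly6g, the neighbour on the other side. They are the 250 bases before a start listed by RefSeq (build GRCm38.p6), written 5′ to 3′ on the gene's strand. RefSeq's promoter table matched 4 of the 9 genes, namely Ly6a2, Ly6c1, Ly6c2 and Ly6g. In the first pair, capitals mark bases that differ between the aligned sequences. In Ly6g they mark the motifs TATAAA and CCAAT.
Ly6a2, chr15:75135129-75135378, minus strand: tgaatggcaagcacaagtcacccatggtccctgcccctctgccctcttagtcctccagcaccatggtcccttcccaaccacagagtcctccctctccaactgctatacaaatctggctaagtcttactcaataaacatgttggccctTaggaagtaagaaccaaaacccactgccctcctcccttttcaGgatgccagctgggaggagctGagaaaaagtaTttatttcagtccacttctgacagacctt
Ly6c2, chr15:75111972-75112221, minus strand: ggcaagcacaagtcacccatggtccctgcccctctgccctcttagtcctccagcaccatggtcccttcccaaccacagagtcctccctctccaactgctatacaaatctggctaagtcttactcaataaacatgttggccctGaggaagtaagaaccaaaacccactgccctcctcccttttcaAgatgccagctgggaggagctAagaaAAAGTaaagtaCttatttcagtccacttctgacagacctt
Ly6g, chr15:75155011-75155260, plus strand: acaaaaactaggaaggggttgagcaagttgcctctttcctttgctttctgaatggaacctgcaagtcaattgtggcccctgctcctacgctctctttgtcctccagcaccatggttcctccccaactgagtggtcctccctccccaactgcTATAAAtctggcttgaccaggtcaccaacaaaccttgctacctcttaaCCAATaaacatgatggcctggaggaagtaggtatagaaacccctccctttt

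Over 250 aligned positions, 241 were identical between Ly6a2 and Ly6c2 (96.4%), with 4 substitutions and a gap of 5 bases in Ly6a2. Counted from 1 at the 5′ end of the Ly6a2 sequence, and with its base first, the substitutions were T148G, G190A, G211A and T222C. The first listed start of Ly6g, the one printed, had 67.4% identity to Ly6a2 over 193 aligned positions. The second, not printed, had 72.2% over 255. TATAAA and CCAAT, on either strand, were each found once upstream of both Ly6g starts and of the first Ly6c1 start. Neither was found in the Ly6a2 window, in either Ly6c2 window or upstream of the second Ly6c1 start. Across all 32817 windows of this length in the table, 12.4% held TATAAA and 33.8% held CCAAT. The letters AGGAAGT, which hold the core GGAA that ETS factors such as PU.1 bind, were found once in the Ly6a2 window and in 7.69% of all windows. The longer string GAGGAAGT, which overlaps them, was not in the Ly6a2 window, where the substitution T148G lies at its first letter while the core remains. It was found once upstream of the first Ly6c2 start, in 2 copies upstream of the second, and once upstream of each Ly6g start and of the second Ly6c1 start, and 2.44% of all windows held it. The motifs were chosen after the sequences had been read, and a match or its lack is a description of letters.

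Ly6a2 was the only 1 of the 8 measured genes with a difference of at least 2-fold. Its intensity was 11.8 on the fucose-treated array and 512 with no fucose treatment. On the log2 scale this is 3.55 and 9.00, a difference of 5.45 or 43.6-fold. The gene was thus 0.75 above the array median on one array and 6.18 above it on the other, so the fold rests on a dim value on the fucose-treated array. Ly6a2 is a protein-coding gene of the cluster whose function is little studied, and it has 1 probe set (17318105), so no second measurement within the arrays stands beside this value. A 2-fold or larger positive difference was found for 1.2% of all 22180 genes, and a negative one of that size for 0.257%. Of the 11090 genes past an expression filter, a mean log2 intensity of 2.88 or more, the shares were 2.37% and 0.514%. At 1.5-fold, where Ly6g joined Ly6a2 on the higher side and Ly6c1 was the 1 lower gene, the shares of all genes were 3.21% and 2.28%. Since the list was chosen from this comparison, nothing is read from the members' counts against these shares.

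**Figure D1:**
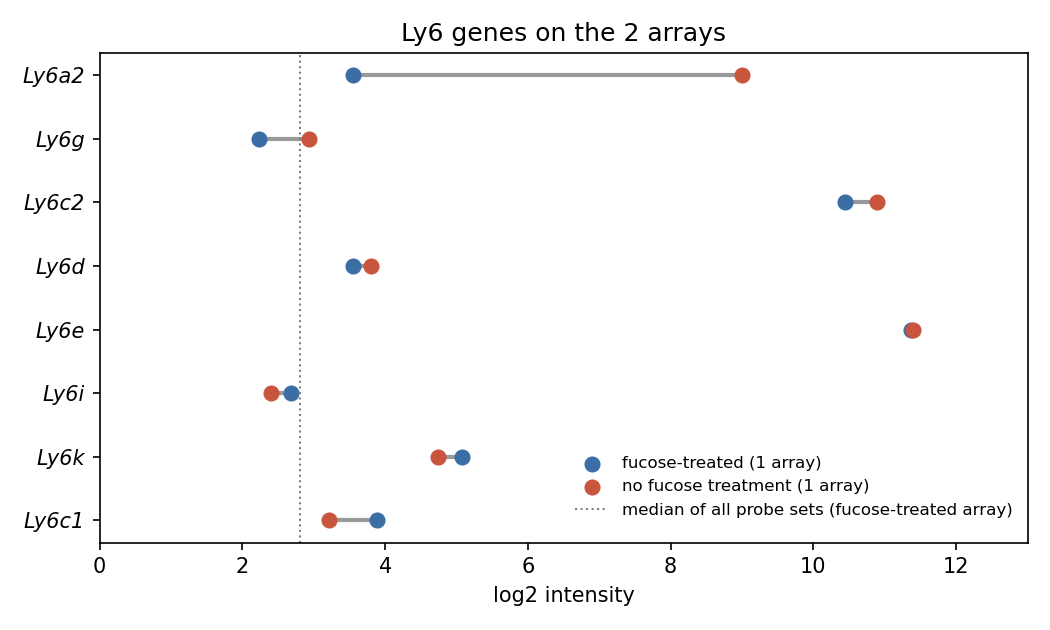
Log2 intensity (x axis) of the 8 measured Ly6 genes (rows) on the fucose-treated array and the array with no fucose treatment, 1 array each, with no error bars since there are no replicates. Ly6a2 runs from 3.55 to 9.00, while the other genes have both points within 0.70 of each other.

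Ly6c1 and Ly6c2 together encode the Ly-6C antigen of inflammatory monocytes, which memory CD8+ T cells and some endothelial cells also carry. Ly6c2 (probe set 17318100) had an intensity of 1388 on the fucose-treated array and 1895 with no fucose treatment, or 10.44 and 10.89 on the log2 scale. This bright gene was thus 1.36-fold higher with no fucose treatment, a difference of 0.45. Ly6c1 (probe set 17318089) was dim, with intensities of 14.7 and 9.27 and log2 values of 3.88 and 3.21. It differed the other way, by -0.67 or 1.59-fold lower with no fucose treatment. The 2 Ly-6C genes are close copies, the probe sequences were not used here, and the part of shared signal in the values of any of these Ly6 genes was not tested.

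Ly6g encodes the neutrophil antigen that antibody 1A8 recognises and that the Gr-1 antibody shares with Ly-6C. Its probe set 17312219 had intensities of 4.70 and 7.61, log2 values of 2.23 and 2.93. It was higher with no fucose treatment by 0.70, but lay below the array median on one array and within 0.11 of it on the other, so the gene was at most barely above the dimmest signals. Ly6i, a relative of Ly-6C found on myeloid cells, was also dim, with log2 values of 2.68 and 2.40 and a difference of -0.28. Ly6g and Ly6i were the 2 measured genes that did not pass the expression filter. Ly6g and Ly6a2 lie next to each other in the RefSeq order.

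Ly6e, an interferon-inducible gene whose product restricts entry of coronaviruses, was bright and nearly the same on both arrays. Its intensity was 2637 and 2689, and its log2 values were 11.36 and 11.39, a difference of 0.03. Ly6d, a marker of B-lineage commitment in lymphoid progenitors, had 3.54 and 3.80, a difference of 0.26. Ly6k, a testis gene needed for sperm migration, had 5.07 and 4.74, a difference of -0.33. A second probe set of Ly6k (17312196) had 2.54 and 2.48, which is -0.06, at values below the array medians. Over the 8 measured genes the differences ran from -0.67 to 5.45 with a median of 0.14, and 5 were positive and 3 negative. Across the genes that passed the filter the median was -0.05.

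**Figure D2:**
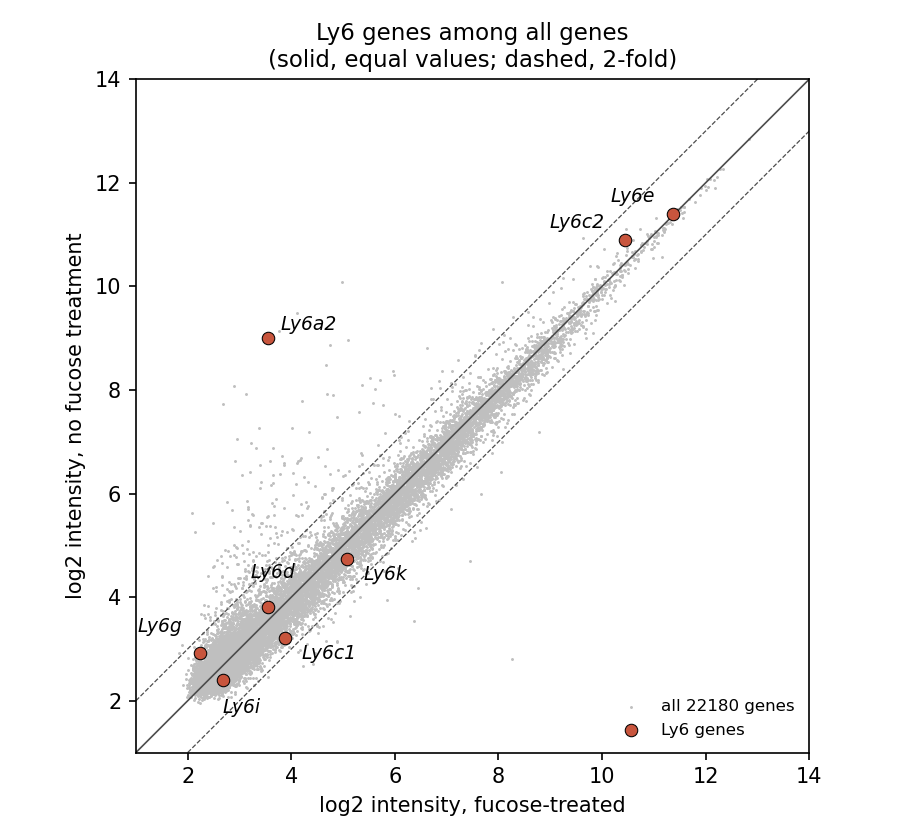
Log2 intensity with no fucose treatment (y axis) against the fucose-treated array (x axis) for all 22180 genes (grey) and the 8 measured Ly6 genes (red), with the line of equal values solid and 2-fold lines dashed. Ly6a2 stands above the dashed lines at 3.55 and 9.00, and the other 7 Ly6 genes lie between them.

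No measured neighbour of Ly6a2 on chromosome 15 had a difference near its size. RefSeq (GRCm38.p6) lists 45 genes from Psca to Gpihbp1, and 24 of them had a probe set of their own. Ly6a2 was higher by more than 2-fold with no fucose treatment, Psca was lower by more than 2-fold (not so after centring on T cell genes), and the other 22 lay within 2-fold, from -0.67 in Ly6c1 to 0.70 in Ly6g. Ly6c2, listed just before Ly6a2, had 0.45, and Ly6g, listed just after it, had 0.70. Ly6g2 and Ly6f, the next measured genes beyond Ly6g, had -0.14 and -0.10, and both were dim. In all, 16 of the 24 genes were below a log2 intensity of 3.3 on both arrays, near the dimmest signals.

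**Figure D3:**
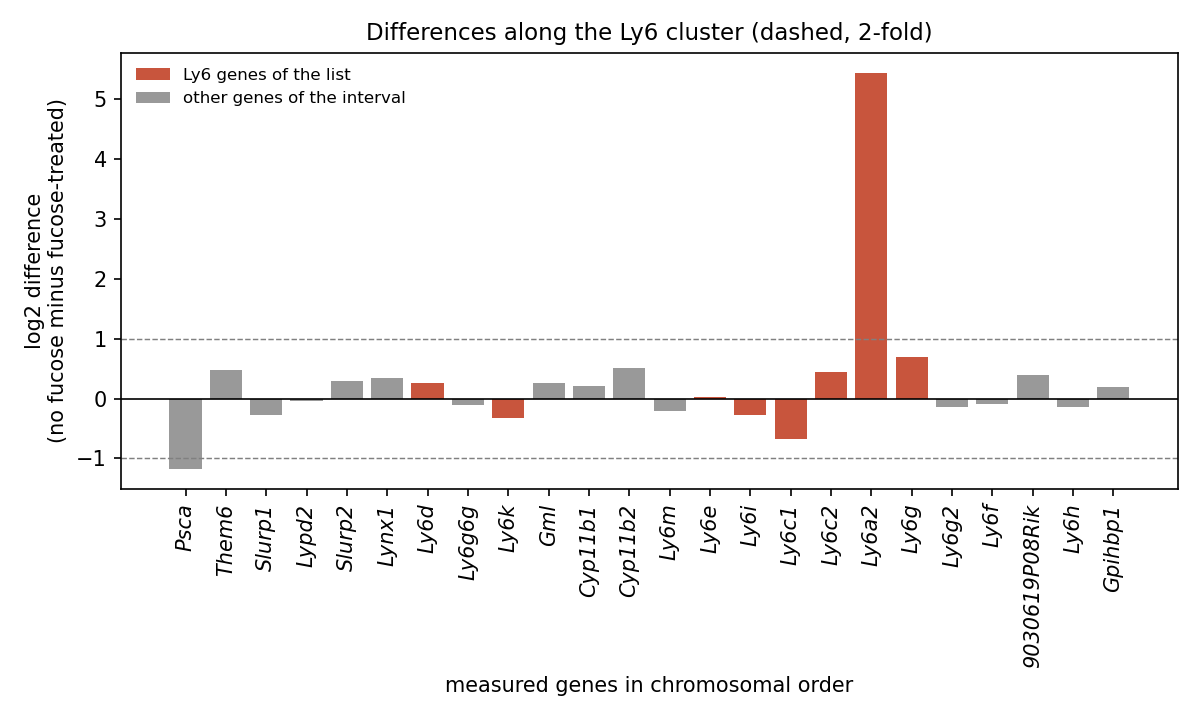
Log2 difference, no fucose treatment minus fucose-treated (y axis), of the 24 measured genes from Psca to Gpihbp1 in chromosomal order (x axis), with the listed Ly6 genes in red and 2-fold marked by dashed lines. Ly6a2 reaches 5.45 between Ly6c2 at 0.45 and Ly6g at 0.70, and Psca is at -1.18.

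The wider family, genes with the Ly6 and urokinase receptor domain outside the list, had few differences of this size. Of 41 such genes 37 had a probe set of their own, and 11 passed the expression filter. Among these 11, 6 were higher and 5 lower with no fucose treatment, with a median of 0.09, and 1 gene was higher and 1 lower by 2-fold or more. That is 9.09% each way, of 11 genes, beside 2.37% and 0.514% of all genes past the filter, and with 1 gene on each side nothing particular to the family is read from it. The 26 genes that did not pass differed by at most 0.34 in size.

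Plaur, the urokinase receptor gene of monocytes, neutrophils and activated cells, was the higher one. Its intensity was 21.9 on the fucose-treated array and 70.9 with no fucose treatment, log2 values of 4.45 and 6.15, a difference of 1.69 or 3.24-fold. Psca, prostate stem cell antigen, was the lower one, with intensities of 17.5 and 7.72 and log2 values of 4.13 and 2.95, which is 2.27-fold lower. After centring on T cell genes, at a 3-fold threshold or with the filter at the 67th percentile, 0 family genes were called lower. Ly6g5b, a family gene in the MHC class III region, had 4.29 and 4.89, a difference of 0.61. Lypd6b, which acts on nicotinic receptors, had 5.97 and 5.47, a difference of -0.49. The next by size were Ly6g6e at -0.30, Slurp1 at -0.28, Ly6g6c at 0.25 and Ly6m at -0.21, all of them dim.

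Other genes were also dim on the fucose-treated array and bright on the other. Likeness to Ly6a2 was measured as the Euclidean distance between the log2 values over the 2 arrays. It is a description of 2 points that uses levels of different probe sets and the values for which Ly6a2 was chosen, and nothing about a shared group of genes is read from it. The 5 nearest genes past the filter were the cathepsin G gene Ctsg (distance 0.25), the neutrophil elastase gene Elane (0.73), the proteinase 3 gene Prtn3 (1.13), the eosinophil major basic protein gene Prg2 (1.15) and the basophil protease gene Prss34 (1.20). Ctsg had 3.77 and 9.14 and Elane 4.11 and 9.48. All 5 were higher with no fucose treatment, by 4.12 in Prss34 to 5.38 in Elane.

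Marker lists of several cell types and a list of interferon-stimulated genes were read beside the Ly6 genes, and their differences varied in size and direction. Fewer cells of a type and less RNA per cell cannot be told apart in such bulk samples. Over all 22180 genes, 1.2% were higher and 0.257% lower by 2-fold or more, and the median difference was -0.0008. The lists were chosen with earlier results of these data known, so their counts here and below are a description. Of the 11 measured genes of the granulocyte precursor list, 10 were higher with no fucose treatment, 7 by 2-fold or more, and the median was 2.11, and their summed intensity was 124 and 2933. Elane, Ctsg, Prtn3 and Mpo had the largest values at 5.38, 5.37, 5.18 and 5.09, followed by Ms4a3 at 5.05, and the other 6 genes had -0.52 to 2.11. The 5.45 of Ly6a2 lay above all 11, but the gene was chosen for this difference, so nothing is read from that rank. The neutrophil list, which goes with Ly6g, had all 10 measured genes higher, although only 7 of them passed the expression filter. In this list 3 genes were past 2-fold, the median difference was 0.54 and the summed intensities were 75.5 and 177. Its largest differences were S100a8 at 3.54, S100a9 at 2.15, Csf3r at 1.33 and Lcn2 at 0.81, and the 0.70 of Ly6g lay below these 4 and above the other 6 genes, which had 0.24 to 0.59. No marker has a value of 0, since array values do not reach it.

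The monocyte list, which goes with Ly6c2, had all 10 genes higher, 8 of them past the expression filter, and 6 were past 2-fold. The median difference was 1.49. Fn1, F13a1, Lyz2 and Ly86 had the largest values at 4.09, 3.06, 3.03 and 2.17. The 0.45 of Ly6c2 lay below 6 of the 10 genes and above 4, which had 0.14 to 0.28. The summed intensity was 1137 and 1637, of which Ctss, a gene many antigen-presenting cells express, made up the larger share at log2 values of 10.03 and 10.17. Without it the sums were 93.5 and 484. The T cell list, whose cells can also carry Ly-6C and Ly6e, had all 10 measured genes lower, with a median of -0.29 and summed intensities of 12189 and 10115. Cd5, Cd3e, Lef1 and Cd4 had -0.50, -0.42, -0.39 and -0.37, and neither Ly6c2 nor Ly6e was lower. With differences centred on that list, Ly6c2 had 0.74 and Ly6e 0.32, and the median over genes that passed the filter moved from -0.05 to 0.25. That centring adds 0.29 to every difference, so all values between -0.29 and 0 given here, those of Ly6i and Slurp1 among them, turn positive under it.

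The interferon-stimulated list, to which Ly6e relates, had 11 of its 12 measured genes lower, none 2-fold, with a median of -0.44 and summed intensities of 778 and 537. Stat2, Ddx58, Usp18 and Ifit2 had -0.74, -0.73, -0.58 and -0.55, whereas Ly6e had 0.03. The stem and progenitor list, only some of whose cells carry Sca-1, had 7 of 9 genes higher and 4 past 2-fold. Its median was 0.58 and its summed intensities were 202 and 447. Of its 9 genes, 5 passed the expression filter. Meis1, Hlf, Mecom and Hoxa9, at 0.43, -0.18, -0.05 and 0.06, did not, and a change in cells that carry Sca-1 was not tested. Gfi1b, Cd34, Gata2 and Kit had 3.23, 2.20, 1.11 and 1.03. The erythroid list had all 7 measured genes higher by more than 2-fold, a median difference of 2.69 and summed intensities of 79.9 and 514, led by Slc4a1, Car2, Rhag and Ermap at 3.76, 2.91, 2.72 and 2.69.

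The cDC1 list had 10 of 11 measured genes higher and 4 past 2-fold, with a median of 0.92 and summed intensities of 243 and 677. Irf8, Naaa, Tlr3 and Wdfy4 had 2.50, 2.39, 2.01 and 1.56, and Itgae was the 1 lower gene at -0.38. The other lists had medians near 0 and no gene 2-fold apart. In them 4 of 7 B cell, 2 of 7 endothelial, 4 of 6 plasma cell and 4 of 6 pDC genes passed the expression filter. Low signal limits what the differences of the rest can show. The B cell list, which goes with Ly6d, had 3 of 7 genes higher and a median of -0.12, with Cd79a, Blk, Ms4a1 and Cd79b at -0.69, 0.41, -0.37 and -0.21 and summed intensities of 75.4 and 70.8. The endothelial list, which goes with Ly6c1, had 5 of 7 higher and a median of 0.14, with summed intensities of 403 and 346. Pecam1, which T cells also express, made up most of these at log2 values of 8.51 and 8.24, and without it the sums were 39.3 and 44.3. The plasma cell list had a median of 0.12 and summed intensities of 151 and 167, and the list of plasmacytoid dendritic cells (pDC) had -0.15, with 622 and 612, or 44.9 and 43.9 without its brightest gene Bst2. The part of any of these cell types in the Ly6 values was not tested.

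**Figure D4:**
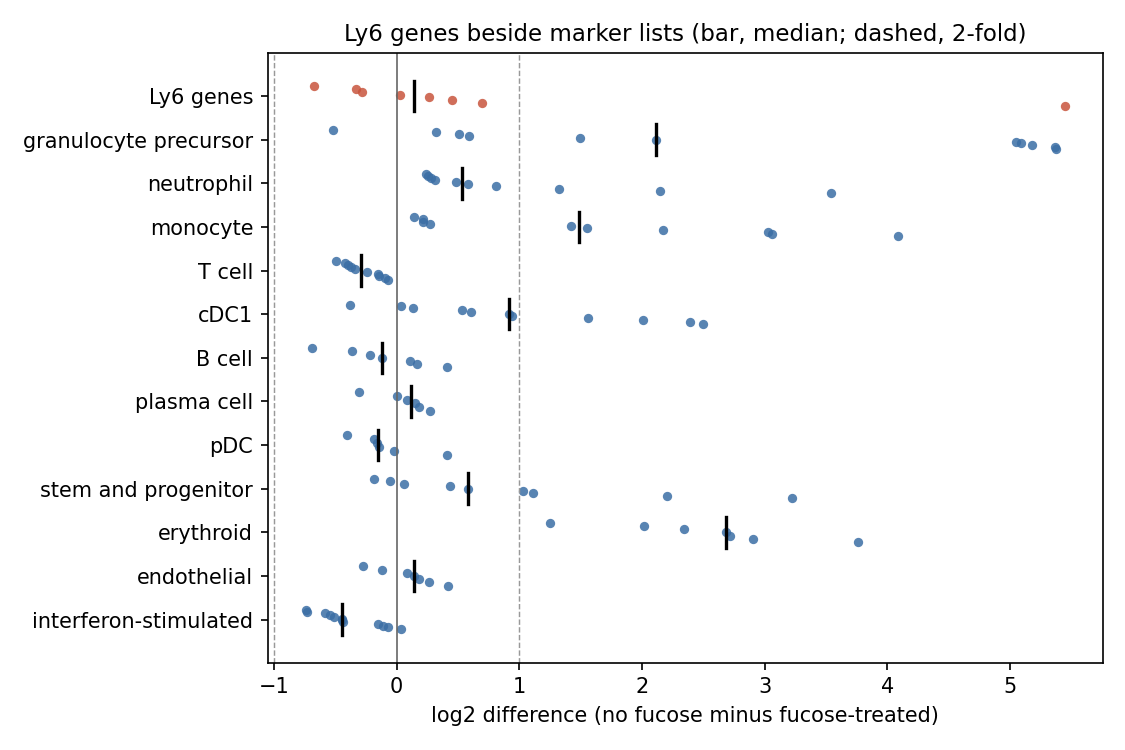
Log2 difference, no fucose treatment minus fucose-treated (x axis), of the 8 measured Ly6 genes (red) and of the measured genes of 12 marker lists (blue), 1 point a gene, with a black bar at the median of each row and dashed lines at 2-fold. The Ly6 genes have a median of 0.14 with Ly6a2, which was chosen for its difference, apart at 5.45. The largest difference of the granulocyte precursor list is 5.38.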

How the data were processed

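RNA of 2 samples, 9 ng each per the labels, was labelled by the WT Pico protocol and hybridised to 1 array a group. The authors deposited 1 intensity per probe set and array, on a linear scale. Per the submitters' processing notes they had summarised and normalised it by RMA. Its version, settings and genome build are not given in the sources used here. Such normalisation makes the arrays alike in distribution, so a shift of all genes would not show. Log2 was taken of each value. Of 41345 probe sets 23521 had 1 gene symbol in the platform annotation, 1814 several and 16010 were not listed. RefSeq (GRCm38.p6) held the Entrez IDs of 23328 of the first and of all 9 probe sets of the Ly6 genes, and no symbol differed.

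The filter kept the 11090 genes whose mean over both arrays reached the median gene's (2.88). Calls are at 2-fold. Calculations used Python 3.11.15 with pandas 2.3.3, statsmodels 0.14.6 (loess, span 0.3) and Biopython 1.88 (local alignment). The calling of genes was also run on simulated data with known shifts, which checks the calculation only and gives no error rate for these arrays. Named genes were the Ly6 list, up to 8 wider family genes past the filter and up to 4 genes of a marker list by size of difference. The 5 nearest to Ly6a2 were named too. Further genes were named as neighbours, to check the cells or to give the rest of a list. For lists whose genes were of small difference fewer or none were named. The members and lists were chosen with earlier results of these data known. Alternatives were the mean of probe sets, quantile normalisation, loess, median or T cell centring, thresholds of 1.5-fold and 3-fold, and other filters. Tests were not possible with 1 array a group.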

Additional observations from a re-analysis of the deposited data

Results flagged for a closer look

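The probe set that names both Gml2 and Gml, 2 genes of the wider Ly6 family, was outside the comparison of genes because it has several symbols. Its log2 intensity was 2.37 on the fucose-treated array and 3.38 with no fucose treatment, a difference of 1.001, above the level of the fucose-treated sample. The probe set of Gml alone differed by 0.25, from 2.64 to 2.89. All these values are close to the array medians of 2.81 and 2.82, and no replicate is at hand to set them against.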

How the results depend on the processing

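No paired analysis was possible because there is only 1 array in a group, and no array could be left out. In place of a replicate error, shifts were set against the robust SD of differences among genes of like expression in 20 bins, which ran from 0.16 to 0.36. Under the mean of probe sets, quantile normalisation, loess and median centring, all 8 Ly6 differences moved by less than that. The mean of probe sets can alter Ly6k alone, the only measured member with 2 probe sets. Median centring subtracts -0.048 from every difference, a constant smaller in size than any of these SDs. Neither is therefore a check of the other Ly6 differences. Quantile normalisation and loess were run on values already normalised by RMA. They had little room to move a difference and are a weak check. With centring on the T cell list, which adds 0.29 to each difference by construction, Ly6a2 had 5.74, Ly6c2 0.74, Ly6e 0.32, Ly6g 0.99 and Ly6i 0.011, a turn of sign for this dim gene alone. At 1.5-fold the Ly6 genes higher were 2 (Ly6a2 and Ly6g) and those lower 1 (Ly6c1), instead of 1 and 0. Of the other family genes, 2 were higher at 1.5-fold. The single lower one, Psca, was not past the threshold at 3-fold or with T cell centring. With a filter on the 67th percentile its level did not pass the filter. Each of these settings leaves 0. Low signal limits the differences of Ly6g, Ly6i, Ly6c1 and Ly6d, and that of Ly6a2 through its value on the fucose-treated array.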
